A study of Schizosaccharomyces pombe with 15 samples.

Results

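The core and variant histone genes of fission yeast (Schizosaccharomyces pombe) were the 10 genes named by a fixed list of identifiers, out of 6998 genes in the count tables. They were the H2A genes hta1 and hta2, the H2B gene htb1, the H3 genes hht1, hht2 and hht3, the H4 genes hhf1, hhf2 and hhf3, and pht1, which encodes the H2A variant H2A.Z. The list is not defined by any measured value, but it was chosen with earlier results of these data known. RNA-seq libraries came from the wild-type (wt) strain JY450, which all groups share, in 5 groups of 3 biological replicates. A control group had no irradiation, 3 groups were sampled 10, 15 and 30 min after exposure to atmospheric-pressure plasma (ionised gas, a source of reactive oxygen and nitrogen species), and the last was sampled at 1 time after treatment with hydrogen peroxide (H2O2). Per the labels, YE cultures that were either growing or in stationary phase were spotted on filters over agar. The sources used here do not give which phase these libraries came from, the plasma dose, or how much H2O2 was applied and for how long. The controls carry no time, so plasma or H2O2, handling and elapsed time cannot be told apart. The H2O2 counts were deposited apart from those of the controls and plasma groups. Any difference between these sets cannot be told apart from H2O2 either. Library totals ran from 14691752 to 23232575 counts.

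Histones package DNA into nucleosomes, each built of H2A, H2B, H3 and H4, and dividing cells need new histones when they copy their DNA. In fission yeast most histone genes lie in divergent pairs that share a promoter, and the GATA factor Ams2 raises their transcription in S phase through a repeated promoter element called the AACCCT box. The hht2-hhf2 pair is known to be transcribed more evenly through the cell cycle than the other H3-H4 pairs. H2A.Z replaces core H2A in nucleosomes near promoters, and core H2A carries the C-terminal serine that is phosphorylated around DNA breaks.

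The promoter element that the core genes share is shown for 4 promoters with 9 bases on either side, because it separates these genes from pht1 and from nearly all other genes. Capitals mark the tandem box, 2 copies of AACCCT in a row. The sequences were read from the RefSeq genome of build ASM294v3 and are written 5′ to 3′ on the strand where the box reads AACCCT.
hta2: atccatcaaAACCCTAACCCTgtatattgc
hht1-hhf1: ctgcatcaaAACCCTAACCCTgcttttgat
hht2-hhf2: gtcaatcacAACCCTAACCCTgatttaaga
hht3-hhf3: tttgatcacAACCCTAACCCTttaattaaa
They lie at I:4053362-4053391 (minus strand), I:4699643-4699672 (plus), II:1365051-1365080 (minus) and II:3529618-3529647 (plus), in the order printed.

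Each of these 4 promoters held the tandem box on a single occasion, 47 to 128 bases upstream of the RefSeq starts of the genes it serves. The box lay 52 bases before hta2, 68 before hht1 and 52 before hhf1, 47 before hht2 and 75 before hhf2, and 61 before hht3 and 128 before hhf3. The deposited tables place the starts of hta2, hht2 and hht3 further upstream than RefSeq, so by the tables' coordinates the box falls inside those transcripts. The word AACCCTAACCCT, searched on both strands, occurred in the 250 bases upstream of 20 of 5112 protein-coding genes (0.391%), of which 9 were the core histone genes. AACCCT alone, which the tandem word contains, occurred upstream of 424 (8.29%). All 4 printed boxes follow the letters ATCA and 1 further base. That longer word, ATCANAACCCTAACCCT, was read from these sequences after they were printed, and it occurred upstream of 10 genes (0.196%), the 9 core histone genes and bdf2, which encodes a bromodomain protein. The pht1 window held neither AACCCT nor the tandem word.

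The tables gave a usable count for 8 of the 10 genes. hta1 (SPCC622.08c, chromosome III, 1411144 to 1412214, minus strand) and hhf3 (SPBC1105.12, chromosome II, 3529657 to 3530388, plus strand) were listed at 0 in all 15 libraries. Both lie wholly inside the annotated interval of a non-coding RNA on the opposite strand, hta1 inside SPNCRNA.1194 and hhf3 inside SPNCRNA.1611. The counting command set no strand and no option for overlapping genes, and all 778 genes nested inside another gene's interval were at 0 in every library, against 187 of the other 6220 (3.01%). The 0 of hta1 and hhf3 is therefore no measure of their mRNA, and neither gene enters any comparison here. A count of 0 allows up to 3 counts, which is 0.129 to 0.197 CPM (a scaled count, defined below), but that limit covers counts assigned to the gene and not its expression.

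**Figure D1:**
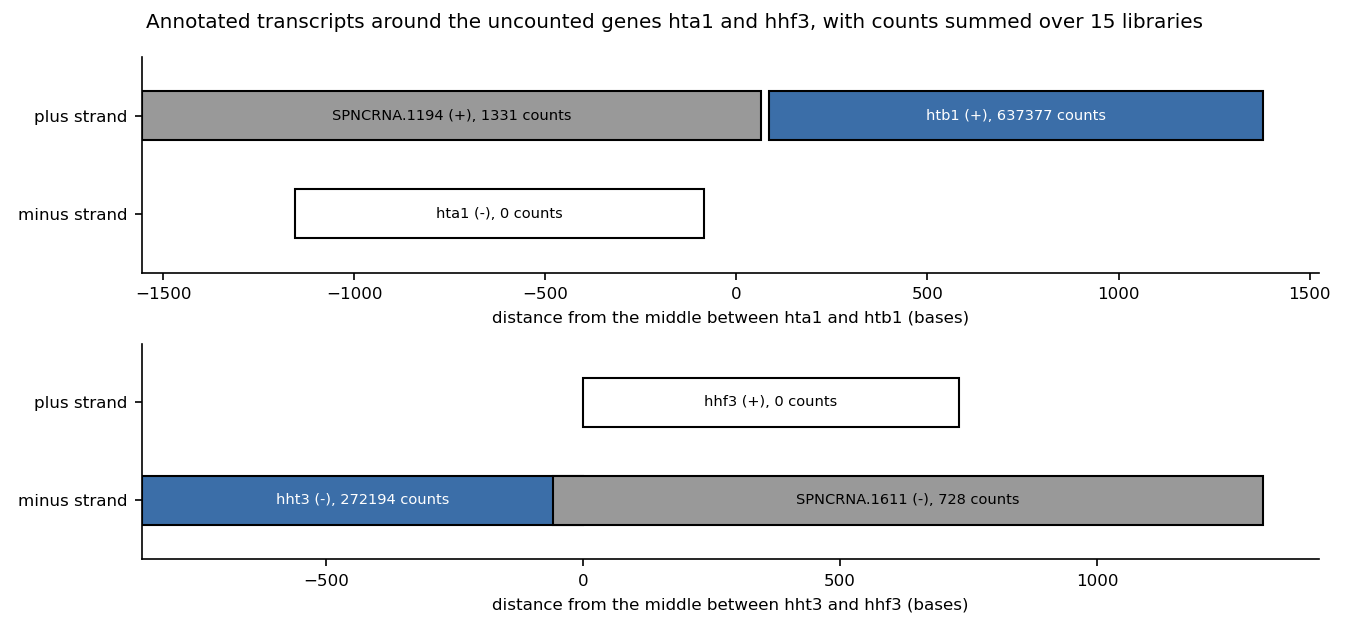
Annotated transcripts at the 2 loci with uncounted histone genes, drawn to scale as distance in bases from the middle of each divergent pair (x axis) by strand (y axis), with the counts summed over all 15 libraries; sec5 and rav1, which overlap the far ends of htb1 and hht3, are not drawn. hta1 and hhf3, both at 0, sit within SPNCRNA.1194 (1331 counts) and SPNCRNA.1611 (728 counts).

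The counts of these non-coding RNAs come from read pairs that lie at least in part outside the histone genes. They do not stand in for hta1 or hhf3, and whether some of these pairs came from histone mRNA was not tested. SPNCRNA.1611 had a mean of 0.186 CPM without irradiation, close to the limit above, 2.10, 4.07 and 5.28 CPM at 10, 15 and 30 min after plasma, and 1.37 CPM with H2O2. SPNCRNA.1194 had 3.57 CPM without irradiation, 5.50, 5.29 and 3.38 CPM after plasma and 5.34 CPM with H2O2. Which strand these reads came from cannot be read from the tables. Among the counted genes, htb1 shares 20% of its length with sec5, hht3 shares 12.2% with neighbours and hhf2 shares 9.59%; hht2 shares 3 bases, and hta2, hht1, hhf1 and pht1 overlap no other gene.

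The copies of H3 and of H4 encode the same protein, so their mRNAs are told apart by silent differences and untranslated sequence. The 3 H3 copies encode the same 136 residues with no difference, while their coding sequences of 411 bases differ at 46 positions between hht1 and hht2, 30 between hht1 and hht3, and 48 between hht2 and hht3. The 3 H4 copies encode the same 103 residues and differ at 21 to 27 of 312 coding bases. The longest stretch that any pair of H3 or H4 transcripts shares letter for letter is 55 bases, so a longer read without errors matches 1 copy. The 2 core H2A proteins are identical at 129 of 131 aligned residues (98.5%), and H2A.Z is identical to them at 57.3% and 58.5%.

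The counted genes differed widely in level. Per kilobase of annotated length and without irradiation, htb1 stood highest at 1407 ± 20.8 CPM per kb (mean ± SD, n = 3), followed by hht1 at 980 ± 113. hhf1 at 795.7 ± 79.4, hht3 at 781.9 ± 47.8 and hht2 at 765.3 ± 47.7 did not differ beyond their spread. The means of hht1 and hhf1 lay within their summed SDs, although each hht1 library was above each hhf1 library. hta2 followed at 643.9 ± 35.9, hhf2 at 367.2 ± 30.0, and the variant gene pht1 lay far below at 82.1 ± 1.81 CPM per kb. These levels use the full annotated length, including stretches shared with neighbours. Read pairs wholly inside such a stretch were not counted.

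All statistical calls below are from edgeR's quasi-likelihood test on the counts, with Benjamini-Hochberg adjustment over the 5214 genes tested and a threshold of 0.05. CPM are relative to the library size after TMM scaling, which sets the bulk of genes level between libraries. In bulk RNA a larger share of cells in S phase and more histone mRNA per cell cannot be told apart.

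After plasma, 5 core histone genes rose, the hht2-hhf2 pair did not pass the test at any time, and pht1 rose at 30 min. The genes called higher were 3 of 8 at 10 min (hta2, htb1 and hht3), 5 of 8 at 15 min (also hht1 and hhf1) and 6 of 8 at 30 min (also pht1). None was called lower, by edgeR or by DESeq2, and none was lower at an unadjusted p under 0.05. Over all genes tested, the share called higher was 21.9% at the earliest time, 27.1% at the next and 31% at the last, and the share called lower was 17%, 24.8% and 29%. At 30 min that is 1616 genes higher and 1510 lower, and 1223 and 1619 with total counts. The median log2 fold change of the 8 genes was 0.24, 0.42 and 0.40 at the 3 times, beside medians over all genes of -0.003, -0.003 and -0.009.

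**Figure D2:**
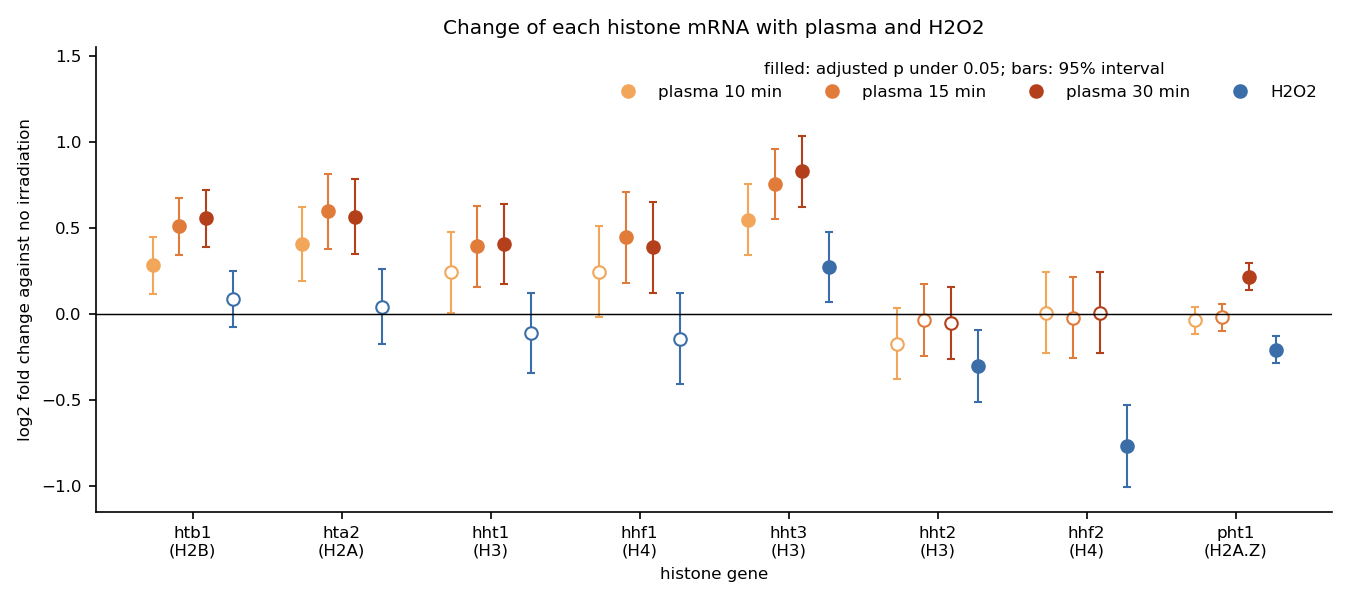
Log2 fold change against no irradiation (y axis) of the 8 counted histone genes (x axis) at 10, 15 and 30 min after plasma and with H2O2; points are estimates, bars 95% intervals, and filled points have an adjusted p under 0.05. The 5 genes on the left lie above 0 at 15 and 30 min, hht2 and hhf2 stay near 0 after plasma, and hhf2 has the lowest value, -0.77, with H2O2.

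The H2B gene htb1 (SPCC622.09, chromosome III, 1412387 to 1413677), the source of all H2B in this yeast, was the most abundant. It stood at 1807, 1795 and 1846 CPM in the 3 libraries without irradiation. After plasma the libraries of 10 min held 2069, 2168 and 2383 CPM, those of 15 min 2360, 2667 and 2724 CPM, and those of 30 min 2853, 2585 and 2558 CPM. Every plasma library lay above every control. The log2 fold change was 0.28 ± 0.08 (SE) at 10 min (adjusted p = 0.00932), then 0.51 ± 0.08 (5.76e-05) and 0.55 ± 0.08 (1.8e-05) at 15 and 30 min. The call at 10 min was lost when only the compared groups were fitted (adjusted p = 0.0948). With H2O2 it stood at 1985, 1886 and 1911 CPM, above all controls, but the difference of 0.09 (95% interval -0.08 to 0.25) did not pass (adjusted p = 0.367).

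hta2 (SPAC19G12.06c, chromosome I, 4052446 to 4053397), the H2A gene that stands without a partner, followed the same course. Without irradiation its libraries held 629, 573.8 and 636.3 CPM. They held 733.3, 780.6 and 918.5 CPM at 10 min, 789.2, 980.6 and 1007 CPM at 15 min, and 988.1, 855.4 and 877.1 CPM at 30 min after plasma. All 9 plasma libraries were above the highest control. The increase on the log2 scale was 0.40 ± 0.10 at 10 min (adjusted p = 0.00514), then 0.60 ± 0.10 (0.000166) and 0.57 ± 0.10 (0.000197) at 15 and 30 min. With H2O2, at 629.9, 661.6 and 602.5 CPM, the libraries overlapped the controls, and the difference was 0.04 (95% interval -0.17 to 0.26, adjusted p = 0.744).

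The divergent pair hht1 (H3, SPAC1834.04, chromosome I, 4699691 to 4700560) and hhf1 (H4, SPAC1834.03c, 4698773 to 4699544) were called at the same times. hht1 held 791.9, 965.8 and 800.3 CPM without irradiation, 870.2, 992.1 and 1161 CPM at 10 min, 995.7, 1177 and 1185 CPM at 15 min, and 1239, 1041 and 1110 CPM at 30 min. hhf1 held 624.7, 669.7 and 548.4 CPM without irradiation, 651.1, 721 and 812.6 CPM at 10 min, 707, 900.4 and 900.6 CPM at 15 min, and 943.4, 710.4 and 754.8 CPM at 30 min. For both genes the libraries at 10 min overlapped the controls and those at 15 and 30 min lay above them.

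At 10 min neither member of that pair passed, with log2 fold changes of 0.24 ± 0.11 for hht1 (adjusted p = 0.0957) and 0.25 ± 0.12 for hhf1 (0.13). At 15 min hht1 rose by 0.39 ± 0.11 (adjusted p = 0.00751) and hhf1 by 0.45 ± 0.12 (0.00738), and at 30 min by 0.41 ± 0.11 (0.00497) and 0.39 ± 0.12 (0.014). With a library left out, hht1 at 10 min ranged from 0.12 without plasma library c to 0.34 without plasma library a, and passed without that library a or control library b (0.33). hhf1 ranged from 0.15 without plasma library c to 0.32 without plasma library a and did not pass. The call of hhf1 at 30 min was lost without control library c (0.31, adjusted p = 0.0619) or plasma library a (0.25, adjusted p = 0.0916). With H2O2, hht1 at 790.6, 805 and 771.4 CPM and hhf1 at 523.9, 605.2 and 536.7 CPM overlapped the controls, and the differences of -0.11 (95% interval -0.35 to 0.12) and -0.15 (-0.41 to 0.12) did not pass. The ratio of hht1 to hhf1 CPM stayed between 1.34 and 1.43 in the 5 group means.

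hht3 (H3, SPBC1105.11c, chromosome II, 3528800 to 3529657, minus strand), the partner of the uncounted hhf3, had the highest fold change of the 8 genes at every plasma time. Its libraries held 653, 717.7 and 641.9 CPM without irradiation and 826.7, 1016 and 1096 CPM at 10 min. They held 1007, 1177 and 1209 CPM at 15 min, and 1162, 1190 and 1221 CPM at 30 min. No plasma library came down to the controls, and the 3 libraries at 30 min lay close together. The log2 fold change was 0.55 ± 0.10 at 10 min (adjusted p = 0.000345), then 0.75 ± 0.10 (1.11e-05) and 0.83 ± 0.10 (2.68e-06) at 15 and 30 min.

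Among the 8, hht3 alone was called higher with H2O2. It held 843.4, 811.6 and 774 CPM, above all controls, and rose by 0.27 ± 0.10 (adjusted p = 0.0267). That call was lost without control library a or c (adjusted p = 0.075 and 0.0771) and without H2O2 library a or b (0.0839 and 0.0601).

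The hht2-hhf2 pair, the one described as less tied to S phase, did not pass the test at any plasma time. hht2 (H3, SPBC8D2.04, chromosome II, 1365041 to 1365818) held 554.6, 627.3 and 604.3 CPM without irradiation, 444.1, 517.5 and 623 CPM at 10 min, 579.6, 546 and 617.1 CPM at 15 min, and 576.6, 579 and 565.4 CPM at 30 min. hhf2 (H4, SPBC8D2.03c, 1364189 to 1365043) held 301.6, 343.4 and 296.9 CPM without irradiation, 270.3, 294.9 and 381.1 CPM at 10 min, 286.3, 301.7 and 339.3 CPM at 15 min, and 345.2, 299.2 and 302 CPM at 30 min. The plasma and control libraries of both genes overlapped at every time.

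For hht2 the log2 fold change was -0.17 at 10 min (95% interval -0.38 to 0.04, adjusted p = 0.177), -0.04 at 15 min (-0.24 to 0.17) and -0.05 at 30 min (-0.26 to 0.15). Without plasma library c of 10 min it passed as lower, at -0.32. For hhf2 it was 0.01 (-0.23 to 0.24), -0.02 (-0.26 to 0.21) and 0.01 (-0.23 to 0.24) at the 3 times. These intervals leave room for changes of about 0.2 either way, and for hht2 at 10 min of -0.38.

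Both genes of this pair were lower with H2O2 than without irradiation. hhf2 held 189.6, 192 and 172.1 CPM, far below the lowest control, and fell by 0.77 ± 0.11 on the log2 scale (-41.2%, adjusted p = 3.27e-05), the largest change of any of the 8 genes in that comparison. hht2 held 503.5, 493.2 and 450.1 CPM, also below all controls, and fell by 0.30 ± 0.10 (adjusted p = 0.016). The hht2 call was lost without control library b (adjusted p = 0.0533) or H2O2 library c (0.0708). The ratio of hht2 to hhf2 CPM was 2.61 ± 0.04 with H2O2 against 1.90 ± 0.12 without irradiation, and 1.68 to 1.88 in the plasma group means. All 3 H2O2 libraries, at 2.569 to 2.656, lay above the control range of 1.827 to 2.035.

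pht1 (SPBC11B10.10c, chromosome II, 1502203 to 1503468), the H2A.Z gene, varied little between replicates, with a coefficient of variation of 0.97 to 2.97% in the 5 groups. It held 105.3, 101.3 and 105.2 CPM without irradiation, 97.97, 103.8 and 102.2 CPM at 10 min and 100.8, 101.9 and 104.9 CPM at 15 min, which overlap. At 30 min it held 120.2, 122 and 119.8 CPM, above every earlier library, and with H2O2 it held 89.65, 90.98 and 89.25 CPM, below every control. It rose at 30 min by 0.22 ± 0.04 (16.1%, adjusted p = 0.000124), a call lost when libraries were scaled to total counts without TMM (0.14, adjusted p = 0.0562). With H2O2 it fell by 0.21 ± 0.04 (adjusted p = 0.000214). At 10 and 15 min the differences were -0.04 (95% interval -0.12 to 0.04) and -0.02 (-0.10 to 0.06).

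**Figure D3:**
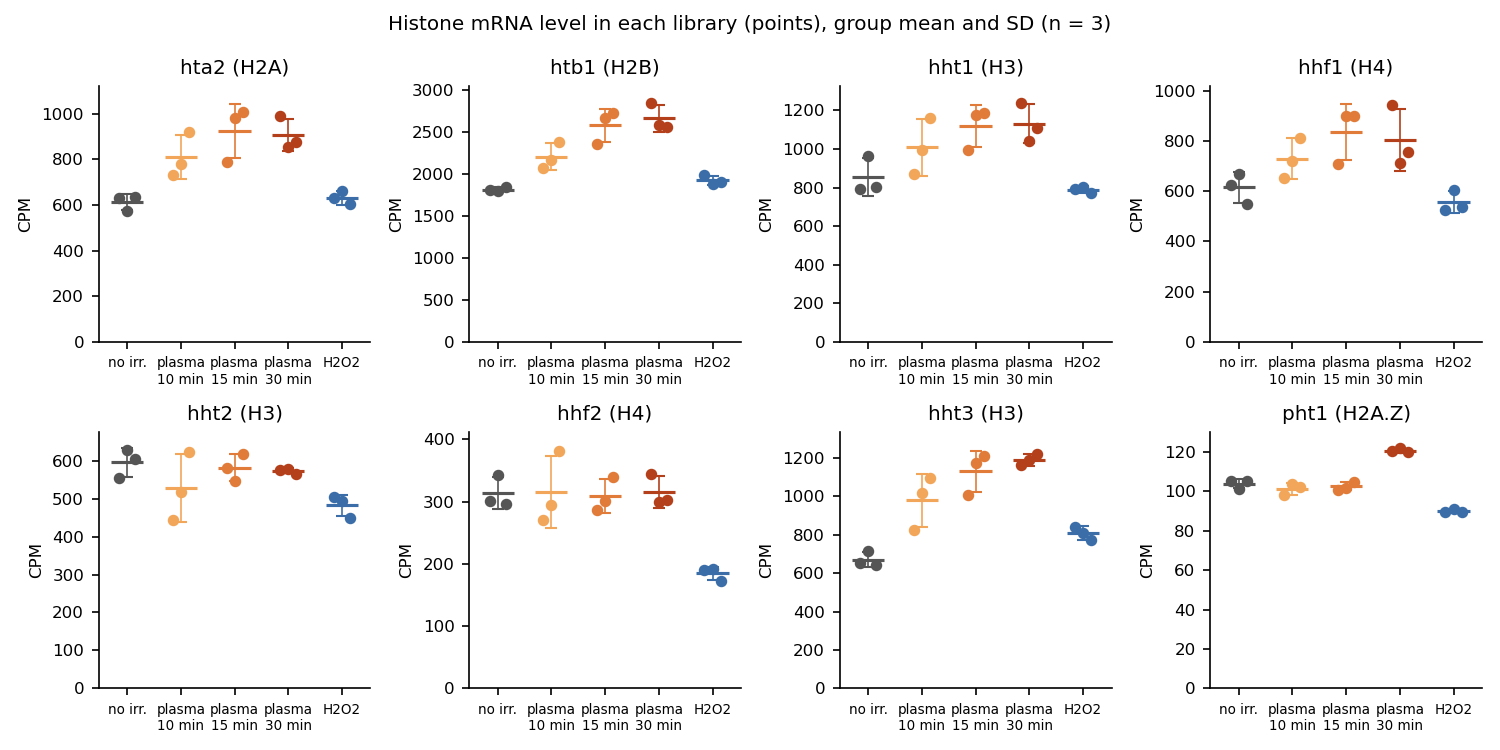
Level of each counted histone gene in CPM (y axis, from 0) in every library (points), with the mean (line) and SD (bar) of the 3 libraries of a group (x axis). After plasma htb1, hta2 and hht3 lie above all controls at every time, hht2 and hhf2 overlap them, and with H2O2 hhf2 drops to between 172.1 and 192 CPM.

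In H2O2 against no irradiation, 1 of the 8 genes was called higher (hht3) and 3 were called lower (hht2, hhf2 and pht1), while 28.5% of all genes were called higher and 25.6% lower. The median of the 8 was -0.13, beside -0.005 over all genes. Each time 1 control or H2O2 library was left out, 3 of these 4 calls remained, with hht2 or hht3 lost as given above.

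The summed CPM of the 8 counted genes shows the size of the pool they form. It was 5580 ± 185 in the controls, 6678 ± 761, 7588 ± 671 and 7706 ± 456 at the successive plasma times, and 5469 ± 141 with H2O2. The 3 H3 copies together held 2119 ± 168 CPM in the controls, 2516 ± 370, 2831 ± 223 and 2895 ± 83.8 at the successive plasma times and 2081 ± 75.3 with H2O2. The 2 counted H4 copies together held 928.2 ± 83.9 CPM without irradiation, 1044 ± 138, 1145 ± 133 and 1118 ± 149 after plasma and 739.8 ± 49.7 with H2O2. The summed H4 libraries overlapped the controls at every plasma time, at 1010 to 1289 CPM at 30 min. The summed H3 libraries overlapped them at 10 min, at 2141 to 2880 CPM, and lay above them at the later plasma times. With H2O2 the summed H3 libraries overlapped the controls, at 1996 to 2138 against 2000 to 2311 CPM. The summed H4 libraries with H2O2 lay below the controls, at 708.8 to 797.2 against 845.3 to 1013 CPM. The H4 sum lacks hhf3, the uncounted partner of hht3, so the H3 and H4 sums do not cover like sets of copies.

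Because the copies encode the same protein, their shares show which gene supplied the counted message. Of the H3 counts without irradiation, 40.2 ± 1.43% came from hht1, 31.7 ± 0.85% from hht3 and 28.1 ± 1.24% from hht2, uncorrected for length. At 10, 15 and 30 min after plasma hht3 supplied 38.97, 39.91 and 41.18%, and with H2O2 38.9%. The share of hht2 was 20.95, 20.59 and 19.83% after plasma and 23.16% with H2O2. In each of these comparisons the treated libraries did not overlap the controls (exact two-sided permutation test, p = 0.1, the smallest that 3 against 3 libraries allow). The hht1 share overlapped the controls after plasma (40.08, 39.5 and 38.99%, exact p = 1.0, 0.6 and 0.4) and was 37.9% with H2O2, without overlap (exact p = 0.1).

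Among the counted H4 copies the hhf2 share was 33.9 ± 1.28% without irradiation, 30.1, 27.1 and 28.3% after plasma and 25.0 ± 1.38% with H2O2, with no overlap between treated and control libraries (exact p = 0.1, again the smallest possible). All these comparisons use the same controls. Behind the shares, hht3 and, at 15 and 30 min, hhf1 were called higher after plasma while hht2 and hhf2 were not called, and with H2O2 hht2 and hhf2 were called lower while hhf1 was not called.

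**Figure D4:**
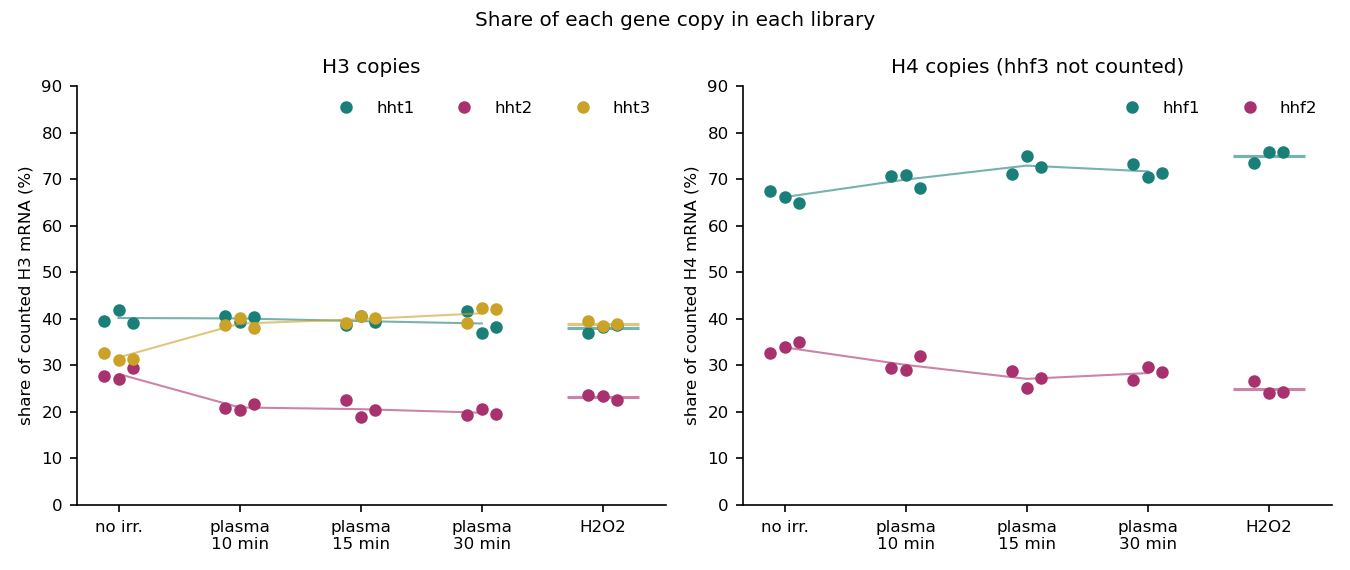
Share in percent (y axis, from 0) of each H3 gene (left) and each counted H4 gene (right) in every library (points), with group means as lines, by group (x axis). The hht3 share lies above and the hht2 share below all controls in every treated library, and the hhf2 share is lowest with H2O2, at a mean of 25.0%.

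The order of levels per kilobase changed with these shifts. At 30 min htb1 led at 2065 ± 126 CPM per kb, and hht3 at 1388 ± 34.5 stood next, above hht1 at 1299 ± 115, although these neighbours did not differ beyond their spread. hhf1 at 1040 ± 160 and hta2 at 952.7 ± 74.8 overlapped, and hht2 at 737.3 ± 9.34, hhf2 at 369 ± 30.2 and pht1 at 95.3 ± 0.93 followed. With H2O2 hht3 was also in the place below htb1, at 943.7 ± 40.5 against 906.9 ± 19.4 for hht1, a difference within their spread, and hhf2 stood at 215.9 ± 12.7 CPM per kb.

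Between plasma times the differences were small. At 15 against 10 min edgeR called none of the 8 genes, beside 7.67% of all genes called higher and 5.96% lower. The nearest were htb1, at 0.23 ± 0.08 (adjusted p = 0.0648), and hht3, at 0.21 ± 0.10 (adjusted p = 0.175). These were the 2 genes with an unadjusted p under 0.05, and DESeq2 called 1, htb1 at 0.23. Without library c of 10 min, htb1 (0.30) and hht2 (0.29) were called, and htb1 (0.29) without library a of 15 min. Over all genes 400 were called higher and 311 lower, and 371 and 153 with total counts.

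At 30 against 15 min only pht1 was called, beside 15.1% of all genes called higher and 13.7% lower, with a rise of 0.24 ± 0.04 (adjusted p = 0.00031). The differences of the 7 core genes ran from -0.06 to 0.07. Under total counts pht1 was no longer called (0.16, adjusted p = 0.0697), and over all genes the split between higher and lower calls moved from 785 and 713 to 378 and 906. At 30 against 10 min, htb1 (0.27 ± 0.08, adjusted p = 0.0114), hht3 (0.28 ± 0.10, 0.0299) and pht1 (0.25 ± 0.04, 7.21e-05) were called higher, 3 of 8 beside 19.9% of all genes, where 18.9% were called lower. The split over all genes was 1035 and 986, and 712 and 1039 with total counts. When only those 2 groups were fitted, hht3 (adjusted p = 0.0529) and htb1 (0.0656) no longer passed. The call of hht3 was also lost without library a of 10 min (0.17) or library b or c of 30 min, and that of htb1 without library a of 30 min (0.22, adjusted p = 0.0518). Without library c of 10 min, hta2 (0.28) and hht2 (0.28) were called as well.

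The direct comparison of plasma with H2O2 is the difference of their changes from the shared controls. At 10 min 6 of the 8 genes were higher after plasma than with H2O2, beside 14.8% of all genes called higher, and 17.5% lower. They were hhf2 (0.77 ± 0.11, adjusted p = 7.52e-05), hhf1 (0.39 ± 0.12, 0.0249), hta2 (0.36 ± 0.10, 0.0129), hht1 (0.35 ± 0.11, 0.0226), hht3 (0.28 ± 0.10, 0.0395) and pht1 (0.17 ± 0.04, 0.0023). The calls of hht3, hht1, hhf1 and hta2 depended on single libraries, and between 2 and 7 genes were called when a library of either group was left out, with 2 without library c of 10 min. hht3 was also lost with RLE scaling (adjusted p = 0.0523) and in a fit of the compared groups alone (0.0728), and pht1 with total counts (0.0533). htb1 (0.20, adjusted p = 0.0663) did not pass, though its libraries did not overlap and DESeq2 called it (adjusted p = 0.0277).

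At 15 and 30 min 7 of the 8 genes were higher than with H2O2, beside 9.9% and 15.3% of all genes called higher and 13.2% and 16.7% lower. All 8 differences from H2O2 were above 0 at each of the 3 times. At 15 min the values ran from 0.19 ± 0.04 for pht1 (adjusted p = 0.00164) to 0.74 ± 0.11 for hhf2 (0.000158). At 30 min pht1 differed by 0.42 ± 0.04 (adjusted p = 7.23e-07), hhf2 by 0.77 ± 0.11 (0.000103) and hht3 by 0.56 ± 0.10 (0.00048). hht2 was the gene not called, at 0.27 ± 0.10 (adjusted p = 0.0603) and 0.25 ± 0.10 (0.0639), though its libraries lay above those with H2O2 at both times and DESeq2 and a fit of the compared groups alone called it. Over all genes, 516 were called higher and 687 lower at 15 min; total counts gave 444 and 398. The 30 min split of 797 against 870 became 481 against 834 under total counts.

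In 2 of the 5 groups the core genes ranked the libraries alike. In plasma 10 min, library a had the lowest CPM and library c the highest for all 7 counted core genes. In plasma 15 min, library c was the highest for all 7 and library a the lowest for 6. The other groups were mixed: the highest library was b for 5 and c for 2 genes without irradiation, a for 5 and b and c for 1 each at 30 min, and a for 3 and b for 4 with H2O2. What sets these libraries apart within their groups was not tested. As a description over the 15 libraries, which share their group means, Pearson's r of log2 CPM was 0.96 between hta2 and htb1 and between hht1 and hhf1, 0.95 between htb1 and hht3, and 0.78 between hht2 and hhf2. It was 0.26 between hht2 and hht3 and 0.33 between hht2 and htb1.

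The other genes with the tandem box did not share 1 direction. Of the 11 other genes that hold it upstream, the calls higher and lower were 3 and 2, 0 and 3, and 2 and 5 at the 3 plasma times, and 1 and 4 with H2O2, with medians of -0.02, -0.02, -0.18 and -0.37. Over all genes the shares called higher were 21.9%, 27.1% and 31% at the plasma times and 28.5% with H2O2. The shares called lower were 17%, 24.8%, 29% and 25.6%, and the counts of the lists below are to be read beside them. bdf2, the non-histone gene with the longer word, rose by 0.16 ± 0.06 at 10 min (adjusted p = 0.0491) and did not pass at 30 min (0.14 ± 0.06, adjusted p = 0.0585). The 2 with the smallest p at 30 min or with H2O2 were erg1, a gene of ergosterol synthesis, which rose by 0.57 ± 0.06 with H2O2 (adjusted p = 1.75e-06), and tbp1, which encodes the TATA-binding protein and changed by -0.65 ± 0.08 with H2O2 (adjusted p = 5.95e-06). tbp1 was also called lower at the 3 plasma times (-0.46, -0.64 and -0.29). After plasma erg1 was called only at 30 min, as lower (-0.19). Both genes were named after their values were seen.

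Genes that act on histone transcription were called in both directions. Of 6 such genes, 1 was called lower at the earliest plasma time, 1 higher at the next, 2 higher and 1 lower at the last, and 2 higher and 1 lower with H2O2, with medians of 0.05, -0.10, 0.00 and 0.03. ams2, the GATA activator, held 10.6 ± 0.58 CPM without irradiation and 14.2 ± 1.08 at 30 min, a rise of 0.42 ± 0.11 (adjusted p = 0.00409), and did not pass at 10 min (0.15), 15 min (-0.14) or with H2O2 (0.11). slm9, of the HIRA complex that restrains histone genes outside S phase, rose by 0.27 ± 0.06 at 15 min, 0.17 ± 0.06 at 30 min and 0.37 ± 0.06 with H2O2 (adjusted p = 7.6e-05). teb1, whose product binds the repeat and which was named for that role after its values were seen, held 47.7 ± 1.21 CPM without irradiation and 48.2 ± 1.30 at 30 min, and fell by 0.14 ± 0.05 with H2O2 (adjusted p = 0.0202).

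The gene of the centromeric H3 variant, cnp1 (CENP-A), was counted at a far lower level than the core genes, at 18.4 ± 0.48 CPM at 30 min, where it was highest. It rose by 0.33 ± 0.10 at 10 min (adjusted p = 0.0149), by 0.61 ± 0.10 at 30 min (6.78e-05) and with H2O2 by 0.40 ± 0.10 (0.00268), and did not pass at 15 min (0.20, adjusted p = 0.0991). Of 8 tested genes for the SWR1 complex, which loads H2A.Z, the calls higher and lower were 1 and 0, 3 and 1, and 1 and 2 at the 3 plasma times, and 3 and 1 with H2O2, with medians of 0.09, 0.08, -0.06 and 0.02. Its subunit genes yaf9 (-0.28 ± 0.06 at 30 min, adjusted p = 0.000832) and swc3 (0.24 ± 0.06 with H2O2, 0.00222) had the smallest p at 30 min or with H2O2. msc1, named after its values were seen, was called higher in all 4 comparisons with no irradiation, by 0.45 ± 0.07, 0.59 ± 0.07 (adjusted p = 4.71e-06) and 0.28 ± 0.07 at the 3 plasma times and 0.25 ± 0.07 with H2O2.

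Histone chaperones, which carry histones to DNA, were called in both directions. Of 13 tested, the calls higher and lower were 2 and 2, 2 and 4, and 2 and 6 at the 3 plasma times, and 3 and 4 with H2O2, with medians of 0.02, -0.09, -0.06 and -0.02. hat1, an H4 acetyltransferase that binds new histones, fell from 64.3 ± 4.36 to 40.3 ± 2.44 CPM at 30 min (-0.68 ± 0.07, adjusted p = 4.7e-07). The list held mug180, which the reference names say1 and which should not be read as a chaperone. It was called higher in all 4 comparisons with no irradiation, by 1.82 ± 0.14 at 30 min (adjusted p = 3.68e-08). Without mug180, the 12 other genes gave 1 higher and 2 lower at 10 min, and 1 and 4 at 15 min. They gave 1 and 6 at 30 min, and 2 and 4 with H2O2.

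Of 9 tested histone modifying enzymes, 3, 2 and 4 were called lower at 10, 15 and 30 min after plasma and 3 with H2O2. Over all genes 17%, 24.8%, 29% and 25.6% were called lower in these comparisons. The other enzymes did not pass, and the medians were -0.14, -0.14, -0.16 and -0.09. The acetyltransferase genes mst1 (-0.49 ± 0.06, adjusted p = 3.16e-06) and gcn5 (-0.33 ± 0.07, 0.00101) were among those lower at 30 min.

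The G1/S and replication genes were called in both directions. Some are transcribed around the same phase as most histones, but the list also holds regulators such as cdc10, res1 and res2. Of 17 tested, the calls higher and lower were 4 and 4, 4 and 10, and 5 and 8 at the 3 plasma times, and 5 and 7 with H2O2, with medians of -0.09, -0.40, -0.10 and -0.07. At 15 min 5 of the 7 counted core histone genes were called higher, beside 27.1% of all genes. At that time 10 of these 17 were called lower, beside 24.8% of all genes. How these counts relate was not tested. mik1, a kinase that delays mitosis, fell from 93.7 ± 5.37 to 35.2 ± 5.20 CPM at 15 min (adjusted p = 2.23e-08) and to 31.0 ± 2.67 CPM at 30 min (4.9e-09). cdt2, which helps a ubiquitin ligase remove replication proteins, held 105.3 ± 2.52 CPM without irradiation and 196.6 ± 6.88 at 30 min (0.90 ± 0.06, adjusted p = 2.8e-09).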

How the data were processed

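Per the labels' protocols, RNA was extracted with hot phenol and sequenced from stranded mRNA libraries. Per the submitters' processing notes, HISAT2 2.2.1 and SAMtools 1.13 were used on a build named R64, a name used for budding yeast although the identifiers are those of fission yeast, so gene coordinates are those of the tables. Read pairs were counted over transcripts by gene with featureCounts 2.0.1, without a strand setting, per the file headers. The deposited values are raw counts, checked here to be whole numbers, in 2 tables of 6998 genes that were joined on the identifier.

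Genes were kept with filterByExpr (5214), scaled with TMM, and all 15 libraries were fitted with 1 mean per group in edgeR 4.0.16 (R 4.3.3), two-sided quasi-likelihood F-test, Benjamini-Hochberg adjusted per comparison at 0.05; the common biological coefficient of variation was 8.8%. The test was also run on simulated counts with the same spread for every gene, which does not check the calls under the spread of these data. Replicates are biological per the labels; chi-square values divided by their degrees of freedom were 8.76 to 78.79 between them, so they differed beyond counting error. Libraries are named by the column letters a to c, which are not the labels' replicate numbers. Identifiers were matched to RefSeq annotation (6852 matched; all 10 histone symbols agreed), and of 6820 genes in both, 1994 had the same start and end. The histone genes and the related lists were chosen with earlier results of these data known. Genes outside the set were named by a rule of the 2 smallest p-values in each list at 30 min or with H2O2; bdf2, erg1, tbp1, teb1 and msc1 were named outside it, after their values were seen. Alternatives were RLE, total counts, no filter, at least 1 CPM in 3 libraries, scaling without the histone genes, DESeq2 1.42.0, the compared groups alone, a replicate block, and each library left out; the chaperone list without mug180 was added after its match was seen. Same-letter libraries correlated in their deviations at -0.113 to 0.31, and in 2 of 10 pairs of groups every correlation was over 0.1. The sequence of 1 promoter is not reported here.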

Additional observations from a re-analysis of the deposited data

Results flagged for a closer look

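For 3 genes, plasma time points differed in a direct test of one time against another (edgeR's quasi-likelihood test, all genes adjusted). At 30 against 15 min 1 of the 8 counted genes was called higher, beside 15.1% of all genes called higher and 13.7% lower. At 30 against 10 min 3 of the 8 were called higher, beside 19.9% of all genes called higher and 18.9% lower. pht1, the H2A.Z gene, was higher at 30 min than at 15 min by 0.235 on the log2 scale and higher than at 10 min by 0.252, in 3 of 3 libraries each, and under total counts the first of these no longer passed. htb1 was higher at 30 than at 10 min by 0.272 and hht3 by 0.282, also in 3 of 3 libraries. Both lost the call when only these groups were fitted. The hht3 call was also lost without library a of 10 min or library b or c of 30 min, and the htb1 call without library a of 30 min.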

How the results depend on the processing

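In alternatives that keep all libraries, 8 of 336 calls of single histone genes were lost, 9 were gained, and 15 of 640 values changed sign, none of them a call. Leaving out a library lost 27 of 252 calls and gained 9, and 31 of 480 values changed sign, again no call; the losses stand beside the results. Signs changed for values near 0. hhf2 at 10 min against no irradiation was -0.002 with RLE or DESeq2 and -0.021 with total counts, and at 30 min -0.058 with total counts and -0.002 with the 1 CPM filter. hhf2 at 15 against 10 min was 0.009 with total counts. At 30 against 15 min total counts gave hht1 -0.062, hhf2 -0.046, hht3 -0.005 and htb1 -0.032. hhf2 at 30 against 10 min was 0.013 with RLE or DESeq2, 0.001 with no filter, 0.003 with the compared groups alone and 0.006 with the replicate block. The block changed no other sign and no call. The number of histone genes called at 15 against 10 min was 2 with total counts and 1 with DESeq2 (main 0), at 30 against 15 min 0 with total counts (main 1), and at 30 against 10 min 1 with the compared groups alone (main 3). With a library left out the number ranged from 0 to 2 at 15 against 10 min, 2 to 5 at 30 against 10 min, and 2 to 7 at 10 min against H2O2 (main 6). Log2 ranges over the libraries left out that cross 0 were, against no irradiation, hhf2 -0.163 to 0.108 at 10 min, -0.089 to 0.054 at 15 min and -0.063 to 0.094 at 30 min, and hht2 -0.085 to 0.011 at 15 min and -0.103 to 0.004 at 30 min. At 15 against 10 min they were pht1 -0.007 to 0.048 and hhf2 -0.13 to 0.143. At 30 against 15 min they were hht1 -0.064 to 0.069, hhf2 -0.041 to 0.109, hht3 -0.002 to 0.132, htb1 -0.016 to 0.092, hta2 -0.132 to 0.043, hhf1 -0.191 to 0.022 and hht2 -0.061 to 0.035. They were hhf2 -0.104 to 0.182 at 30 against 10 min and hht2 -0.018 to 0.24 at 10 min against H2O2. The change of the hht1 share ranged from -0.62 to 0.724 percentage points at 10 min and -1.21 to 0.144 at 15 min. The cause of these changes was not tested. The 8 counted genes each had at least 29458 counts over the 15 libraries, and hta1 and hhf3 had no usable count.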

Other observations

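The genes whose log2 CPM followed the mean of the 8 counted histone genes most closely over the 15 libraries, out of 4604 genes compared, were SPBC1703.13c (Pearson's r = 0.93), qcr7 (0.92), atp5 (0.92), mic26 (0.92) and atp2 (0.91). qcr7 encodes a subunit of the respiratory bc1 complex, atp2 and atp5 encode subunits of the ATP synthase, and mic26 a part of the mitochondrial contact site complex. atp5 stood at 197.8 ± 6.14 CPM without irradiation, 232.8 ± 5.53, 265.4 ± 4.90 and 266.7 ± 8.52 CPM at 10, 15 and 30 min after plasma and 195 ± 7.65 CPM with H2O2. mic26 stood at 55.8 ± 1.96, 76.3 ± 3.02, 83.7 ± 2.80 and 87.5 ± 4.16 CPM in the same order, and 50.9 ± 3.31 CPM with H2O2. The likeness was ranked after the values were measured and describes these libraries.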
